A study of Mus musculus with 8 samples.

Results

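The muscle actin and actinin genes are Acta1, Actc1, Acta2, Actg2, Actn2 and Actn3, 6 of the 22367 protein-coding genes in the GENCODE annotation of mm9. Their chromatin occupancy by myogenin and p300 was described from every peak interval within 50 kb of a gene body, which gave 54 of the 43759 intervals in the 4 peak lists. The data come from C2C12 cells, a mouse myoblast line labelled as strain C3H that fuses into myotubes when serum is withdrawn. Differentiation lasted 24 h, either with no added ligand (Ctl) or in the presence of 50 nM bexarotene (Bex), a synthetic ligand of the retinoid X receptor that was added at its start. ChIP-seq was performed with an antibody to myogenin or to p300, with 1 library for each factor and condition, so the values below have no replicate error and no test between conditions was made. The lists give peak positions without heights, and they hold 5912 (Myog_Ctl), 6642 (Myog_Bex), 22051 (p300_Ctl) and 9154 (p300_Bex) intervals. The sequencing depth of the libraries is not known from these lists.

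Actins polymerize into the thin filaments along which myosin pulls, and each actin gene has its own tissue pattern. Acta1 encodes the actin of adult skeletal muscle and Actc1 that of the heart, which embryonic skeletal muscle also uses. Acta2 and Actg2 encode the smooth muscle actins, and Acta2 is also expressed in myoblasts and early in differentiation. The alpha-actinins encoded by Actn2 and Actn3 anchor thin filaments at the Z-disc, Actn3 in fast fibers. Myogenin is a basic helix-loop-helix factor that binds E-boxes and drives myoblast differentiation, whereas p300 is a histone acetyltransferase found at active enhancers. The serum response factor binds CArG boxes, which are classic elements of actin promoters.

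All 6 members lie on the minus strand of mm9. Acta1 is annotated at chr8:126415669-126418651, Actc1 at chr2:113873018-113879284 and Acta2 at chr19:34315580-34329826. Actg2 is at chr6:83462899-83486259, Actn2 at chr13:12361693-12433027 and Actn3 at chr19:4861223-4877909. Sequences of intervals on which the description turns were read from the mm9 genome on the strand of the gene, 5′ to 3′. Capitals mark matches to a CArG box, a MEF2 site or an E-box, which was defined as CAGCTG or, on either strand, as the alternative core CACCTG.

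The sequences upstream of Acta1 are shown because the bexarotene list covers more E-boxes there than the control list. They are the control interval chr8:126419703-126419874, the far upstream 300 bases of the longer bexarotene interval over the same place, chr8:126419862-126420161, and the interval chr8:126419153-126419380, called with bexarotene and not in control. The control interval holds an E-box and a MEF2 site, and the bexarotene interval adds a pair of E-boxes 3 bp apart.
Acta1 upstream, Myog_Ctl: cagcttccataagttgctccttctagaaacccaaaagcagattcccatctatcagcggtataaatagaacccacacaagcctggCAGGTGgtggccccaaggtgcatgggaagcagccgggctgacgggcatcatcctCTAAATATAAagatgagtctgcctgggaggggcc
Acta1 far upstream, Myog_Bex: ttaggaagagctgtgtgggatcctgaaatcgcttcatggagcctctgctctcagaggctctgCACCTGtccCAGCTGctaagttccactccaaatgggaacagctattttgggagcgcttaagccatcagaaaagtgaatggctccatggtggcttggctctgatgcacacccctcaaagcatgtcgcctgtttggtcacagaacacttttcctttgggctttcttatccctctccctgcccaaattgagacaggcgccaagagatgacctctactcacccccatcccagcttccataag
Acta1 near upstream, Myog_Bex: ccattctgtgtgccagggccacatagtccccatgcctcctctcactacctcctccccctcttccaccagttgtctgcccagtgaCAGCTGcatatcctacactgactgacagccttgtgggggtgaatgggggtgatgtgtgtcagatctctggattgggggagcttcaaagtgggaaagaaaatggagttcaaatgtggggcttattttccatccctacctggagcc

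At Acta2 the myogenin interval chr19:34329974-34330184 lies upstream of the start and overlaps a control interval. The intervals chr19:34330753-34331029, farther upstream, and chr19:34326351-34326518, in intron 2, had no control counterpart. The last sequence is the middle of a p300 interval in intron 1, chr19:34328703-34328902. It is shown because this is the only member interval with a CArG box of the strict form searched here.
Acta2 near upstream, Myog_Bex: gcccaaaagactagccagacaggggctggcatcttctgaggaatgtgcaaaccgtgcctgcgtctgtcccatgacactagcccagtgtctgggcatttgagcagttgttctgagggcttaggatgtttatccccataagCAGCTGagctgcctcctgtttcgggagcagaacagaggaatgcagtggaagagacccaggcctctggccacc
Acta2 far upstream, Myog_Bex: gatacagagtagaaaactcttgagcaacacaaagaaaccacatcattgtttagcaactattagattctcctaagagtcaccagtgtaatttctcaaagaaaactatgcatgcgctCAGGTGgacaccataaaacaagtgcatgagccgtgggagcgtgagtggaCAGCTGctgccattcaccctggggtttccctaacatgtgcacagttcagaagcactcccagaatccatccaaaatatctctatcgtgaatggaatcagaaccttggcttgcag
Acta2 intron 2, Myog_Bex: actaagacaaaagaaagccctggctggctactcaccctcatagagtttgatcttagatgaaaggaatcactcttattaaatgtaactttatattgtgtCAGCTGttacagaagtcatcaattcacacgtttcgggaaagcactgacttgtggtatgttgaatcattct
Acta2 intron 1, p300_Bex: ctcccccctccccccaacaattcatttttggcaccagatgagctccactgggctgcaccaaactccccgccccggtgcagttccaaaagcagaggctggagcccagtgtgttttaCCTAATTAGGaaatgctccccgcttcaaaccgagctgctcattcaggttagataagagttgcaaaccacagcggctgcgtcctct

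At the interval chr2:113886012-113886179 upstream of Actc1, both factors were called with bexarotene and neither in control. The intervals of both factors there had the smallest length of their list. The interval chr13:12404444-12404662 of Actn2 lies in intron 1, carries more than 1 E-box, and was called for myogenin in both conditions.
Actc1 upstream, Myog_Bex: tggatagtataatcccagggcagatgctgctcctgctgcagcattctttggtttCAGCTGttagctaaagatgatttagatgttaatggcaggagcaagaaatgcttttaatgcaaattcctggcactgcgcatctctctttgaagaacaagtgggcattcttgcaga
Actn2 intron 1, Myog_Ctl: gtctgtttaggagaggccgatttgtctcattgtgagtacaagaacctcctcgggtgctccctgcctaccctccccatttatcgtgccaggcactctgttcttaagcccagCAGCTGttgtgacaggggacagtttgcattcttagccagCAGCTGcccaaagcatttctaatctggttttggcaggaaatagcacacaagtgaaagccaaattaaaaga

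Acta1 had the most myogenin intervals of the 6 genes and no p300 interval. Within 50 kb it had 4 intervals in Myog_Ctl, 5 in Myog_Bex, 0 in p300_Ctl and 0 in p300_Bex. The nearest p300 intervals lay 127 kb from the gene in control and 298 kb with bexarotene. The surrounding 1 Mb was not poor in p300, with 12 intervals in control and 6 with bexarotene against medians over all genes of 10 and 3.

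Actc1 had 1, 3, 2 and 3 intervals in the same order of lists. Acta2 had 1, 4, 11 and 9, the most p300 intervals of the members in both conditions. Actg2 had 0 in each list. It thus stood apart from the other smooth muscle actin, and its nearest interval, from p300_Ctl, lay 163 kb away. Actn2 had 1, 1, 4 and 2 intervals, and Actn3 had 1, 1, 0 and 1.

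**Figure D1:**
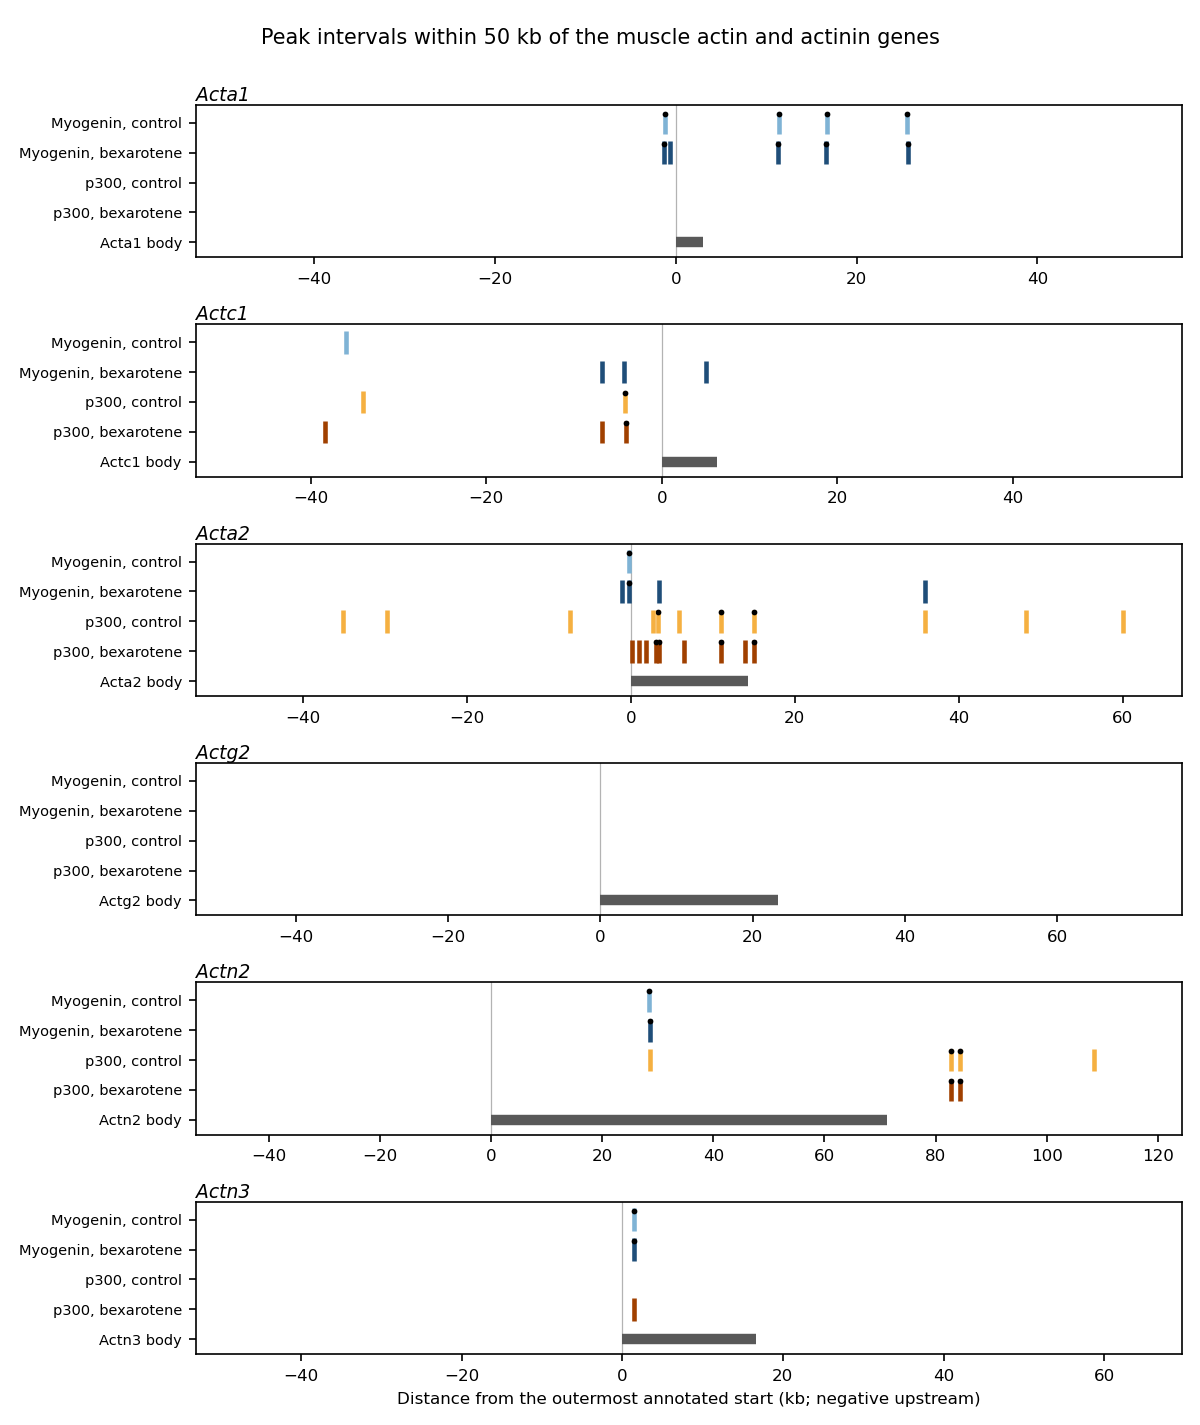
Each panel is a member gene, with the distance from its outermost annotated start in kb on the x axis and the 4 peak lists in rows. A colored tick is a peak interval, a black dot marks an interval that overlaps one of the same factor in the other condition, and the gray bar is the gene body. Acta1 shows myogenin ticks and no p300 ticks, Acta2 shows p300 ticks across its body, and the Actg2 panel is empty.

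At least 1 interval was found for 5 of 6 members in Myog_Ctl, 5 in Myog_Bex, 3 in p300_Ctl and 4 in p300_Bex. Over all protein-coding genes the corresponding shares were 32.3%, 32.9%, 53.8% and 35.2%. The counts of both myogenin lists and of p300_Bex were thus above the background share, the p300_Ctl count was close to it, and no test was made over 6 genes. The p300_Bex count includes Actn2, whose intervals in that list lay at or in the neighboring gene Mtr. The shares of all genes include such neighboring intervals as well. The mean number of intervals per member was 1.33, 2.33, 2.83 and 2.5, against 0.663, 0.664, 1.58 and 0.653 over all genes. Acta2 alone supplied 11 of the 17 p300_Ctl and 9 of the 15 p300_Bex intervals, and the remaining members had 6 in each p300 list.

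**Figure D2:**
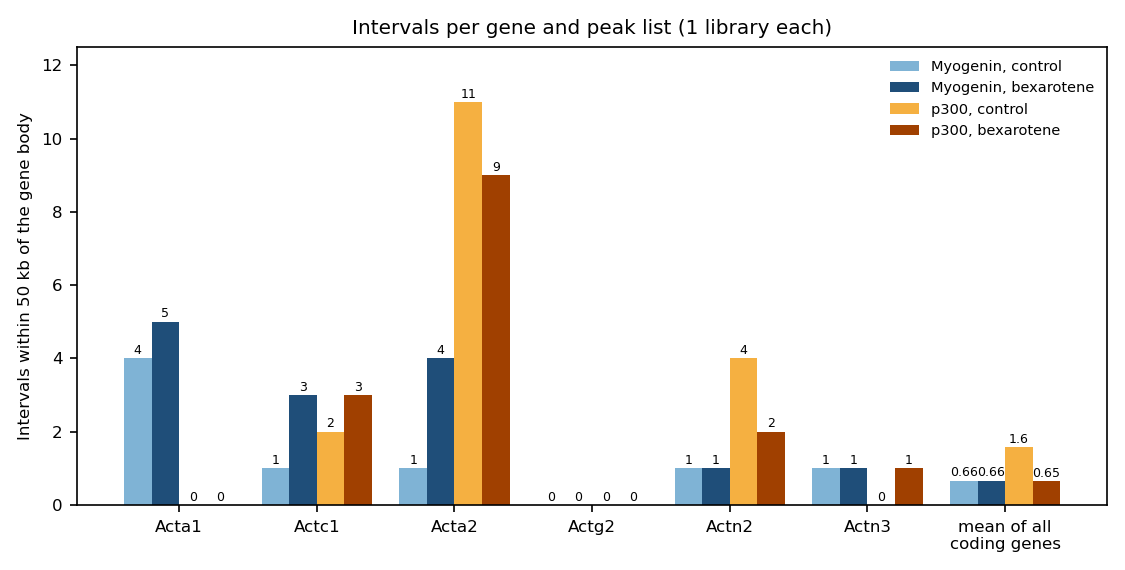
Bars give the number of intervals within 50 kb of each gene body in each of the 4 peak lists, with the mean over all 22367 protein-coding genes at the right. Each bar is 1 library and has no error bar. Acta2 reaches 11 and 9 p300 intervals, and Acta1 reaches 4 and 5 myogenin intervals.

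Relative to other genes, the Acta1 and Acta2 counts lie in the upper tail. At least 4 Myog_Ctl intervals were found for 4.27% of protein-coding genes, and at least 5 Myog_Bex intervals for 2.08%. Both conditions of Acta1 were met by 344 genes (1.54%), of which 5, Acta1 included, had no p300 interval within 50 kb. Of these 5 genes, Nup133 and 1700054N08Rik are neighbors of Acta1 whose counts equal those of Acta1, with windows that overlap its own, so they are not separate cases and 2 genes elsewhere remain.

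At least 11 p300_Ctl intervals were found for 1.25% of genes and at least 9 p300_Bex intervals for 0.241%. The 47 genes (0.21%) that met both included Acta2. The chromosomal neighborhood of Acta2 was itself dense in p300, with 33 intervals per Mb in control and 20 with bexarotene, levels reached by 2.04% and 0.545% of genes. These include the 11 and 9 intervals of Acta2 itself, and 22 and 11 remain without them. How far this density accounts for the count at Acta2 was not tested.

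Only Actc1 and Actn3 among the members had more p300 intervals with bexarotene than in control, a direction found for 4.59% of all genes. More myogenin intervals with bexarotene were found for Acta1, Actc1 and Acta2, and for 16.2% of all genes. The p300_Ctl list is much longer than the p300_Bex list, which bears on every comparison of their counts.

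**Figure D3:**
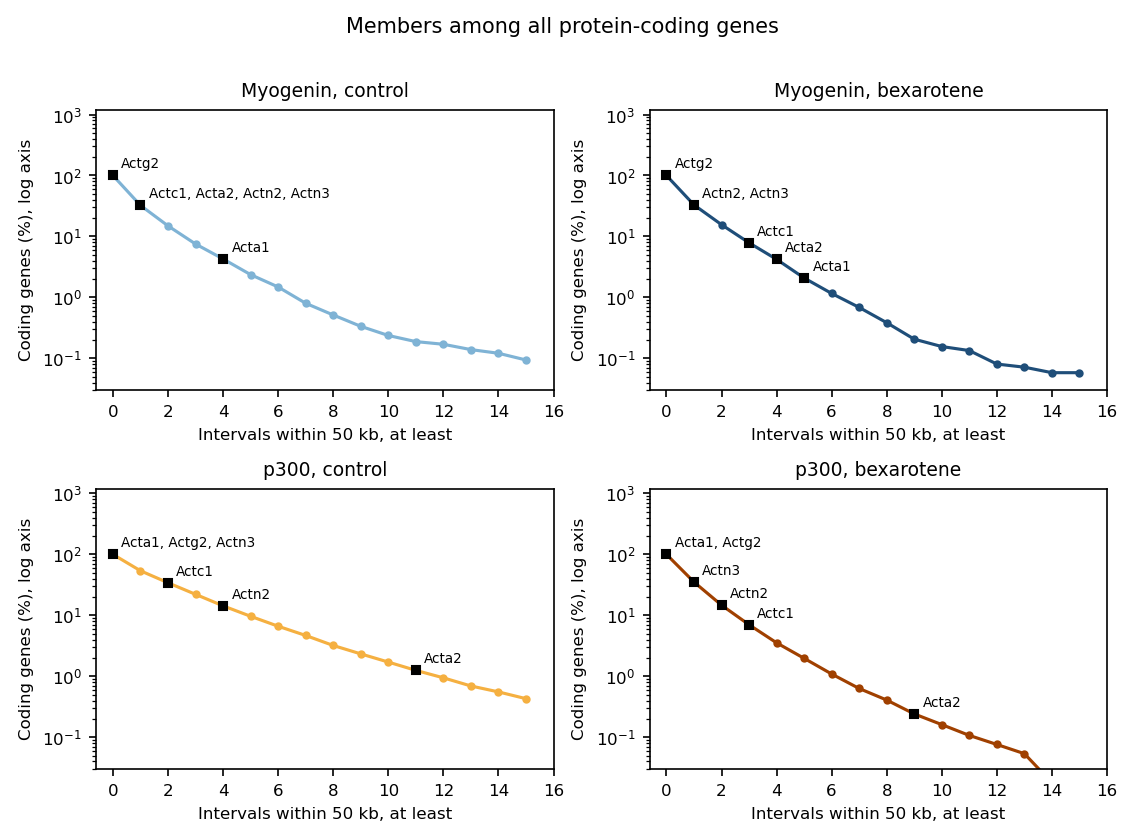
Each panel is a peak list and gives, on a log axis, the percentage of protein-coding genes with at least the number of intervals on the x axis. Black squares mark the 6 members. Acta2 sits at 0.241% in p300_Bex, and Acta1 at 2.08% in Myog_Bex.

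Acta1 was described by position next. In control 3 myogenin intervals lay downstream of the gene, at 25615, 16686 and 11404 bp from the start, and each overlapped a bexarotene interval. The control interval upstream was centered at -1138 bp and was 172 bp long, the smallest length in its list. The bexarotene interval over it was 453 bp long, ran farther upstream and was centered at -1284 bp. A bexarotene interval of 228 bp at -616 bp had no control counterpart and was the only one of Acta1 within 1 kb of the start.

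In the 2 kb upstream of Acta1 the genome holds 11 E-boxes, of which 4 were inside a myogenin interval. The E-box at -1139 bp, counted from its upstream base, was covered in both conditions. Those at -1448, -1439 and -645 bp, in the sequences printed above, were covered only with bexarotene. The nearest E-boxes to the start, at -484, -377 and -245 bp, were covered in neither condition. CArG boxes lay at -419 and -97 bp, and neither was covered by any list. The longest annotated gene model over this locus, Gm20388, spans 4.4 Mb and contains every Acta1 interval, so the annotation also places them inside another gene. The most distal one lay nearer to the start of 1700054N08Rik than to that of Acta1.

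**Figure D4:**
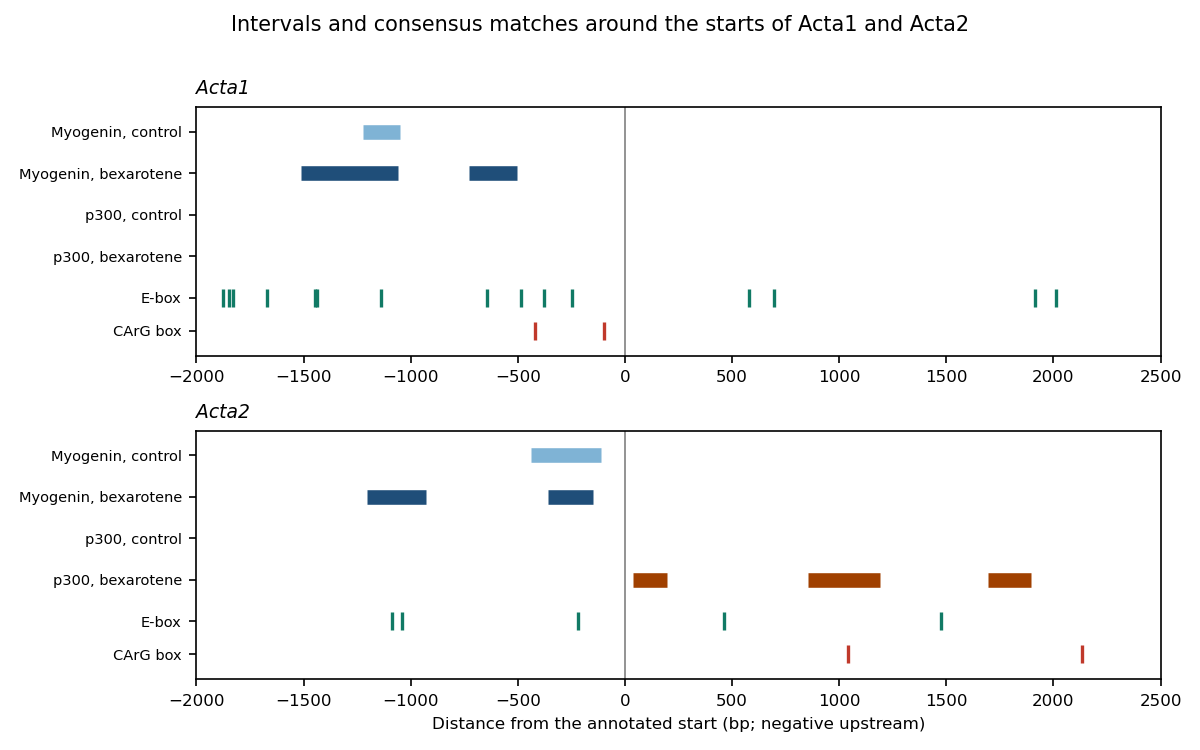
The x axis is the distance from the annotated start of Acta1 (top) and Acta2 (bottom) in bp, colored bars are the intervals of each list drawn to length, and ticks are E-boxes and CArG boxes in the genome. Upstream of Acta1, 4 of 11 E-boxes within 2 kb are covered by myogenin. Upstream of Acta2, 3 of 3 are covered, and in the stretch drawn past the start, which ends before the control interval at 2685 bp, p300 intervals appear with bexarotene only.

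Actc1 shared no myogenin interval between conditions. The control interval lay at -35916 bp, had 172 bp, the smallest length of its list, and held no E-box. With bexarotene an interval of 168 bp, the smallest length of that list, lay in intron 5. Others were centered at -4284 bp (210 bp) and -6812 bp (168 bp). The interval at -4284 bp also held no E-box, the one in intron 5 held none within 50 bp of its center, and the one at -6812 bp held a CAGCTG. The occupied stretch near Actc1 was therefore seen with myogenin only in the bexarotene library.

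p300 was called near -4.1 kb of Actc1 in both conditions, centered at -4139 bp in control and -4104 bp with bexarotene. The bexarotene myogenin interval at -4284 bp touched the bexarotene p300 interval by 5 bp. It overlapped the control p300 interval over a longer stretch. At -6812 bp the overlap with a p300 interval centered at -6860 bp was 115 bp, and there p300 was called with bexarotene and not in control. The merged region of these intervals held a pair of CAGCTG sites, and 1 of them lies in the myogenin interval printed above. The remaining p300 intervals lay at -34018 bp in control and at -38402 bp with bexarotene and did not overlap. The bexarotene p300 intervals of Actc1 were all 158 bp long, the smallest length of their list. Both proximal regions also lie within the long non-coding gene models C130080G10Rik and RP23-230H3.2.

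At Acta2 the myogenin interval next to the start was called in both conditions. It was 330 bp long and centered at -274 bp in control, and 211 bp long and centered at -253 bp with bexarotene, and it held the E-box at -219 bp. The interval at -1065 bp, with E-boxes at -1088 and -1039 bp, was called with bexarotene only. The genome holds 3 E-boxes in the 2 kb upstream of Acta2, and all of these were covered with bexarotene. In intron 2 a bexarotene myogenin interval at 3392 bp overlapped a bexarotene p300 interval by 153 bp. The remaining bexarotene interval lay at 35923 bp inside Stambpl1, the neighboring deubiquitinase gene, nearer to a start of that gene, at a place where p300 was called in control.

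p300 at Acta2 differed in position between the libraries. In control 4 of 11 intervals lay in the gene body, and with bexarotene 8 of 9. The long interval just downstream of Acta2, inside Stambpl1, was called in both conditions, with 1076 bp in control and 995 bp with bexarotene. It was the longest p300 interval of the members in each list. An interval in intron 7 and the intron 2 region were also shared, the latter as 547 bp in control and as separate intervals of 158 bp with bexarotene.

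Close to the start of Acta2, p300 was called with bexarotene only, at 118, 1024 and 1796 bp. The interval at 118 bp also overlaps an annotated untranslated region. The CArG box at 1039 bp lies in the interval at 1024 bp and is printed above. Bexarotene-only intervals also lay in intron 3, at 6474 bp, and in exon 9. These 5 bexarotene-only intervals of the gene body were 158 to 336 bp long, and 2 of them were at the smallest length of the list, 158 bp. In control the unshared intervals of the body lay in intron 3, at 5834 bp, and in intron 1, at 2685 bp, each 159 bp long, also the smallest length of their list.

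The remaining 6 control p300 intervals near Acta2 were not called with bexarotene. They lay at 60021, 48158 and 35902 bp downstream, inside Stambpl1, and at -7368, -29767 and -35122 bp upstream. The last of these was centered 202 bp upstream of the start of Fas, which encodes a death receptor.

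Actg2 had no interval in any list. The nearest myogenin intervals lay 240.0 kb away in control and 347 kb with bexarotene, and the nearest p300 intervals 163 and 239 kb. Its 1 Mb neighborhood held 3, 3, 9 and 3 intervals in the order of the lists, close to the medians over all genes of 3, 3, 10 and 3. Of all protein-coding genes 36.1% had no interval within 50 kb in any of the lists.

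Actn2 had a myogenin interval in intron 1 in both conditions, centered at 28438 bp (219 bp long) in control and at 28492 bp (226 bp) with bexarotene. p300 overlapped it in control by 106 bp and was not called there with bexarotene. Both E-boxes of this region are CAGCTG, 33 bp apart. The remaining p300 intervals of Actn2 lay past its downstream end, at or in Mtr, which encodes methionine synthase. Those nearest to the start of Mtr, at -33 and -6 bp from it, and a pair inside Mtr were shared between conditions. A control interval at 108408 bp was not.

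Actn3 had its myogenin interval in intron 1, at 1458 bp (263 bp) in control and at 1432 bp (328 bp) with bexarotene. With bexarotene a p300 interval of 158 bp lay wholly within it. In control p300 was not called there, and the nearest control p300 interval was 111 kb away. Actn2 and Actn3 thus had the same myogenin pattern and opposite conditions for the p300 overlap, each on 1 interval at the smallest length of its list.

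Over the members together, intervals were classed as shared when they overlapped the same factor in the other condition by at least 1 bp. In Myog_Ctl 7 of 8 member intervals were shared, 87.5% (95% Wilson interval 52.9 to 97.8), against 50.6% of the whole list. In Myog_Bex it was 7 of 14, 50.0% (26.8 to 73.2), against 45.1%. Acta1 alone supplied 4 of the 7 shared control intervals, and the Myog_Bex share was close to that of its list. Wilson intervals here cover counting error over intervals and not variation between cultures, and intervals of 1 gene are not independent.

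In p300_Ctl 6 of 17 member intervals were shared, 35.3% (17.3 to 58.7), close to the 32.7% of the whole list. Among intervals longer than the smallest of their list in both conditions it was 1 of 9, 11.1% (1.99 to 43.5), against 28.3% of the list. Most of these 9 intervals lay at Acta2. In p300_Bex 7 of 15 were shared, 46.7% (24.8 to 69.9), below the 79.7% of the whole list. With the same limit on length it was 1 of 4 (4.56 to 69.9%), against 88.1%. All 4 lay at Acta2, so this share describes that locus and not the members together. Acta2 contributed 5 of the 8 unshared p300_Bex intervals, and without Acta2 the share was 3 of 6, 50.0%. Of the 15 intervals 11 had the smallest length of the list, 158 bp, which was the length of 48.9% of the whole list.

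**Figure D5:**
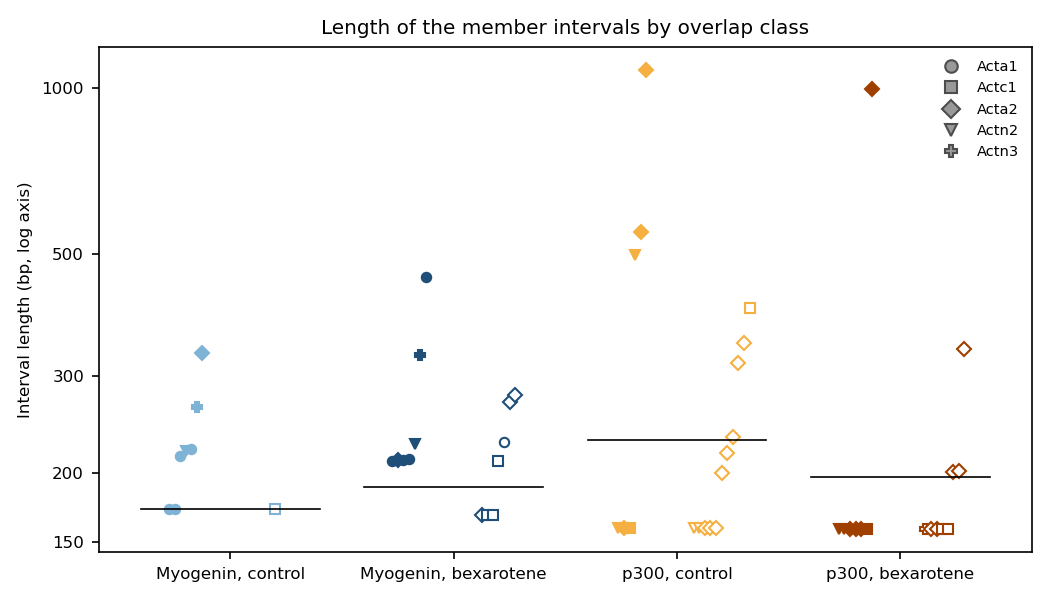
Each symbol is a member interval, with its length in bp on a log axis, grouped by peak list. Filled symbols at the left of each group are shared between conditions and open symbols at the right are not, symbol shape gives the gene, and the black line is the median of the whole list. The 1076 and 995 bp p300 intervals downstream of Acta2 stand highest, and 11 of 15 p300_Bex intervals lie at 158 bp.

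Overlap of myogenin with p300 of the same condition was seen for 1 of 8 Myog_Ctl member intervals, at Actn2, against 33.0% of the list. It was seen for 4 of 14 Myog_Bex intervals, at Actc1, Acta2 and Actn3, against 25.6%. Seen from p300, 1 of 17 control intervals (background 8.79%) and 4 of 15 bexarotene intervals (background 18.5%) overlapped myogenin. The Wilson intervals of the myogenin shares ran from 2.24 to 47.1% and from 11.7 to 54.6%. They and those of the p300 shares contain the background, so no difference is read from them. Merging all lists gave 34 regions, of which 19 were in 1 list, 11 in 2, 4 in 3 and none in all 4. Both factors, in any condition, met in 6 of them, 2 each at Actc1 and Acta2 and 1 each at Actn2 and Actn3. The same counts over all merged regions of the lists are not given here. Whether the member regions differ from them was therefore not tested.

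Of 8 Myog_Ctl member intervals 5 had an E-box at most 50 bp from their center, 62.5% (30.6 to 86.3), against 47.7% of the list. In Myog_Bex it was 10 of 14, 71.4% (45.4 to 88.3), against 60.3%. For p300_Ctl it was 6 of 17, 35.3% (17.3 to 58.7), against 19.6%, and for p300_Bex 4 of 15, 26.7% (10.9 to 52.0), against 25.2%. Each background lies inside the Wilson interval of the members. With the myogenin intervals of both conditions merged, 13 of 15 member regions held an E-box over their whole length and 6 held more than 1, against 67.0% and 33.5% of all such regions in the lists. The member intervals had median lengths of 217 bp (Myog_Ctl) and 211.5 bp (Myog_Bex), against 172 and 189 bp in the lists. A longer region has more room for an E-box, and regions matched for length were not compared. Of the 21 sites in the member regions 15 were CAGCTG and 6 were CACCTG or CAGGTG. Over all such regions in the lists 8029 of 11561 sites were CAGCTG, a similar share.

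The search for other motifs reached 100 bp to each side of an interval center, on both strands. Windows of this size can reach past the ends of a short interval. Those of the 22 myogenin intervals held a CArG box in 0, a MEF2 site in 2, the MCAT element GGAATG in 7, an AP-1 site (TGACTCA or TGAGTCA) in 0, GGGCGG in 1 and TGTGGT in 8. Over the whole control and bexarotene myogenin lists the AP-1 site was present in 10.4% and 12.6%, GGAATG in 16.7% and 19.1%, and TGTGGT in 25.6% and 29.6%. The CArG box was present in 0.896% and 0.979%, the MEF2 site in 3.04% and 3.30%, and GGGCGG in 10.9% and 7.18%. The windows of the 32 p300 intervals held a CArG box in 1, a MEF2 site in 0, GGAATG in 7, an AP-1 site in 5, GGGCGG in 5 and TGTGGT in 8. Over the whole p300 lists the AP-1 site was present in 27.8% and 27.1%, GGAATG in 18.7% and 18.9%, and TGTGGT in 31.1% and 32.7%. The CArG box was present in 1.12% and 1.04%, the MEF2 site in 2.88% and 2.86%, and GGGCGG in 9.58% and 10.9%. Intervals of both conditions at the same place share sequence and are counted in each list.

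The promoters of the members, from 250 bp upstream to 50 bp downstream of each coding start in mm9, were searched in the same way. A CArG box was found for Acta1, at -97 bp, for Actc1, at -35 bp from the inner of its annotated starts, and for Actg2, at -31 and -68 bp. The same window held a CArG box for 1.35% of 46015 coding starts and more than 1 for 0.0196%. No interval of any list covered these sites. The CArG box used here, CC and GG around bases that are all A or T, was not found in these windows of Acta2, Actn2 or Actn3. Variants with a G or C among the inner bases were not searched, so their absence cannot be read from this.

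The non-muscle genes of the families served for comparison. Actb and Actg1 encode the cytoplasmic actins and had 4, 3, 6 and 4 and 1, 3, 5 and 5 intervals in the order of the lists. Actn1 and Actn4 encode the non-muscle actinins and had 1, 4, 7 and 3 and 4, 2, 5 and 0. All 4 had p300 in control, with 5 to 7 intervals. Of the members Acta2 had 11, Actn2 had 4, Actc1 had 2, and Acta1, Actg2 and Actn3 had 0, so that the share with p300 was close to that of all genes. With bexarotene p300 was called near 3 of the 4 non-muscle genes and near 4 of the 6 members, and no difference between the groups was tested.

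Of 43 genes of thin filaments, Z-discs and their serum response regulators, members left out, 29 (67.4%) had a Myog_Ctl interval, 29 (67.4%) a Myog_Bex interval, 37 (86.0%) a p300_Ctl interval and 28 (65.1%) a p300_Bex interval. These shares exceeded those of all genes given above. The most intervals over the 4 lists were found for Mkl1, a coactivator of the serum response factor (7, 4, 11 and 5), Cap2, an actin-binding protein (5, 9, 5 and 4), and Csrp1, a LIM-domain protein (1, 2, 12 and 7). By the sum of absolute differences over the 4 counts, Acta1 was nearest to Mkl2 (a sum of 3), Actc1 to Nrap (3), Acta2 to Csrp1 (5), Actn2 to Lmod1 (1) and Actn3 to Abra (1). Pdlim3 came next for Acta1 (5). The next places were ties for Actc1 (a sum of 4, Capza2 among 2 genes), Acta2 (10, Actn1 among 2), Actn2 (2, Flnc among 2) and Actn3 (2, Capza2 among 6). Actg2 shared its absence of intervals with 3 genes of the list, of which Myocd and Smpx come first in the alphabet.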

How the data were processed

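Only the 4 peak lists of the 8 samples were used, and the input and H3K27me3 libraries were not analysed here. The authors aligned myogenin reads with BWA and p300 reads with Bowtie to mm9, removed duplicates with Picard and called peaks in each library separately with HOMER. The deposited files hold chromosome, start and end of each peak, in base pairs counted from 0 at the start, and no counts or scores. Positions are printed counted from 1. Gene bodies and coding starts come from the GENCODE annotation of mm9, and distances run from the start to the interval center, negative upstream. Intervals of at least 1 bp overlap were merged. E-boxes were searched within 50 bp and other motifs within 100 bp of the center, on both strands. A fixed consensus stood in for motif discovery. Promoters were read from mm9, because the RefSeq promoter table is of another build. The sequence of the Actn3 interval is not reported here.

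The members and the gene list were chosen with earlier results of these data known. All 6 members are named. Of the gene list, Actb, Actg1, Actn1 and Actn4 are named, then the 3 genes with most intervals and up to 2 genes nearest to each member by their counts, with ties in alphabetical order. Of other genes, those that hold a member interval or whose start lies nearer to it are named. With 1 library per condition no test was made, and shares carry 95% Wilson intervals. Alternatives changed the window, the overlap rule, the E-box, the promoter limit, the starts and the smallest interval. Tables were handled with pandas 2.3.3 and numpy 2.4.6 under Python 3.11.15, sequences with pysam 0.24.0, intervals with scipy 1.17.1 and figures with matplotlib 3.10.9. The functions were tested on simulated data in 12 steps, all of which were recovered.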

Additional observations from a re-analysis of the deposited data

How the results depend on the processing

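With 1 library per condition, neither replicates nor depth could be varied. No paired analysis was possible because no result comes from a test. Of 82 alternative values 60 stayed within 1.5 times the reported count or inside the Wilson interval of the reported share, and 22 moved beyond it. A window of 10 kb left 5 of 8 Myog_Ctl and 8 of 17 p300_Ctl member intervals, and 18 genes of the thin filament list with p300_Bex. A window of 100 kb gave 13 Myog_Ctl intervals. Keeping intervals longer than the smallest of their list left 5 Myog_Ctl, 9 p300_Ctl and 4 p300_Bex member intervals, the last all at Acta2. It gave a shared share of 100% in Myog_Ctl, where the Wilson interval from 56.6% contains the 61.6% of the whole list under the same limit. In p300_Ctl the shared share was 11.1%, with most of the intervals from Acta2. The length limit also left 19 genes of the thin filament list with Myog_Ctl and 18 with p300_Bex. Shares of all genes are not given for the 10 kb window or the length limit. The comparison of that list with all genes therefore holds for the main settings only. Intervals whose nearest coding start was that of the member numbered 8 in p300_Ctl. Without Acta2, an alternative chosen after seeing the data, 6 p300_Ctl and 6 p300_Bex intervals remained. A promoter limit of 2 kb gave 3 Myog_Ctl, 5 Myog_Bex and 4 p300_Bex intervals, against 1, 2 and 1 at 1 kb. The share of the whole lists at either limit is not given, so no difference is read from these counts. Over the whole interval 87.5% of Myog_Ctl member intervals held an E-box, against 65.2% of the whole list, whose median interval is shorter. GGGCGG was held by 2 myogenin intervals. Any CANNTG within 50 bp was found in 100% of Myog_Ctl, 76.5% of p300_Ctl and 53.3% of p300_Bex member intervals, against 67.0%, 49.5% and 53.5% of the whole lists. The narrower window, the length limit and the nearest-start rule admit fewer intervals, and the wider window, the 2 kb limit and CANNTG admit more. The whole interval can be longer or shorter than the search window, so it can admit more or fewer. For p300 it held GGAATG in 6 and GGGCGG in 4 intervals, against 7 and 5 within 100 bp. The cause of the moved shares was not tested further. A peak absent from a list may lie just below the threshold of the authors, which the lists do not show.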
